A study of Mus musculus with 20 samples.

Results

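The 62 genes described here encode the enzymes that attach glucuronic acid or glutathione to drugs, toxins and endogenous compounds, together with the carboxylesterases. They were the rows of the deposited table, out of 54532, whose Ensembl identifier maps to a protein-coding gene of the UDP-glucuronosyltransferase families Ugt1a, Ugt2 and Ugt3 (21 genes), of the soluble glutathione S-transferase classes Gsta, Gstm, Gstp, Gstt, Gsto, Gstz and Gstk (22 genes) or of the carboxylesterase families Ces1 to Ces5 (19 genes). A further 2 rows that matched by name, Ces2d-ps and Gstm2-ps1, are pseudogenes and were left out. RNA sequencing of 20 libraries from C57BL/6 mice gave their transcript levels. Hepatocyte organoids (Hep-Org, grown from hepatocytes in Matrigel and passaged) gave 2 libraries. Hepatocytes freshly isolated at 6, 12, 24, 48 and 72 h and 7, 14 and 21 d after partial hepatectomy (PHx, an operation that takes out 70% of the organ) gave 2 libraries per time, and undamaged liver gave 2. No transgene or drug treatment is named for any group. The 18 libraries of PHx and undamaged liver are called liver here, and n = 2 in every group. Whether the pair of libraries in a group stems from different mice or different cultures is not stated. P-values therefore measure only the spread between libraries, which may be technical in the liver groups. The 2 Hep-Org libraries held opposite sex-linked transcripts (values below), so their spread is not technical alone.

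Glucuronosyltransferases (UGTs) sit in the endoplasmic reticulum membrane and move a sugar from a nucleotide donor onto a small molecule, which makes it soluble enough for export in bile or urine. Glutathione S-transferases (GSTs) are mostly cytosolic and join reactive electrophiles to glutathione. Carboxylesterases cut ester and amide bonds and so prepare many compounds for conjugation, and several also hydrolyse stored lipids. All 3 groups are abundant in adult hepatocytes and are used as measures of how far cultured cells keep liver function.

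Most families lie in tandem gene clusters, whose members resemble each other in sequence. The 9 Ugt1a genes span 165 kb of chromosome 1 (positions 88055388 to 88220002 of mm10, GRCm38), where each gene has a first exon and promoter of its own and all share the remaining exons. The 10 Ugt2 genes span 601 kb of chromosome 5, the 7 Gstm genes 149 kb of chromosome 3, the 3 Gstp genes 24.2 kb of chromosome 19, and the 8 Ces1 and 7 Ces2 genes 360 kb and 287 kb of chromosome 8. Of the 50-base words in the exons of each Ugt1a gene, 52.1% to 79.8% occur in another gene. The level of a single Ugt1a gene is therefore uncertain, since the way the authors' counting split such reads is not given. The same caution holds for Gsta1 (90.5% of words shared), Gsta2 (49.8%), Gstp1 (33.7%), Gstp2 (54.3%), Gstm3 (28.8%), Ugt2b5 (41.7%), Ugt2b38 (37.4%), Ces2c (36.1%), Ces3a (25.6%) and Ces3b (26.2%). Gsta4, Gstm4, Gstm5, Gstp3, Gstt1, Gsto1, Gstk1, Ugt2b1 and Ces4a shared none.

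The promoter of Gstm5 is shown because, of the 47 genes with a liver mean of at least 1 FPKM, this gene alone lay above every liver library in both Hep-Org libraries. It is the RefSeq sequence (GRCm38.p6, plus strand, 250 bases before to 50 after the annotated start) of chr3:107895604-107895903. Capitals mark a match to TGACNNNGC, the core of the antioxidant response element.
Gstm5: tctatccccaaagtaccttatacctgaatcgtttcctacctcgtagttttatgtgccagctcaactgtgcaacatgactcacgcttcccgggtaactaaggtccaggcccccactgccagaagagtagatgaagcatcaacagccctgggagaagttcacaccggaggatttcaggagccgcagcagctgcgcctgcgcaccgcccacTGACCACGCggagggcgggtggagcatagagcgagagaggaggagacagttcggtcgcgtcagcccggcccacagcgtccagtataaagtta
The match lay on the plus strand, with its first base 42 bases before the start. Both strands of every promoter in the table were searched. TGACNNNGC was found in 12.4% of 32851 promoters and in 3 (4.76%) of the 63 promoters listed for 54 of the genes (Gsta3, Gstm5 and Gstm7). Gsta3 and Gstm7 were lower in Hep-Org than in undamaged liver (values below). A match describes letters in the window and not binding.

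Across libraries the 3 enzyme groups differed in how much of their transcript Hep-Org held. Levels are FPKM (fragments per kilobase of exon per M fragments, M being 1000000), scaled between libraries by the authors. UGT transcripts summed to 21.7 and 100.5 FPKM in Hep-Org replicates 1 and 2, against 488 to 2370 FPKM in liver. Carboxylesterases summed to 65.2 and 156 FPKM in Hep-Org, against 933 to 4578 FPKM in liver. GSTs summed to 452 and 1167 FPKM in Hep-Org, against 688 to 3814 FPKM in liver. The UGT and carboxylesterase sums of Hep-Org lay below every liver library, at 4.49% and 5.04% of the liver mean. The GST sum of replicate 2 lay inside the liver range, and the Hep-Org mean was 47.0% of the liver mean. All genes together summed to 167676 to 184765 FPKM in Hep-Org and 326835 to 988797 FPKM in liver. The percentages of the liver mean here and below therefore depend on the authors' scaling.

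Within these groups the families differed as well. The Ugt1a family summed to 1.03 and 3.20 FPKM in Hep-Org (3.85% of the liver mean), the Ugt2 family to 20.6 and 97.2 FPKM (5.01%) and the Ugt3 family to 0.0443 and 0.0643 FPKM (0.0418%). Among the GSTs the Gsta class summed to 82.9 and 267 FPKM in Hep-Org, against 13.8 to 451 FPKM in liver, and the Gsto class to 22.8 and 27.1 FPKM, against 10.2 to 37.9 FPKM in liver. The Gstp class summed to 257 and 374 FPKM in Hep-Org, against 109 to 1476 FPKM in liver. The Gstt class summed to 38.4 and 62.7 FPKM, against 30.6 to 195 FPKM in liver. Both Hep-Org libraries lay inside the liver range for Gsta, Gsto, Gstp and Gstt. For the Gstm class, at 46.1 and 429 FPKM against 122 to 2457 FPKM in liver, only replicate 2 did. Gstz and Gstk lay below the liver range. Ces1 summed to 0.319 and 1.03 FPKM in Hep-Org, against 399 to 2878 FPKM in liver, and Ces3 to 0.0261 and 0.135 FPKM, against 180 to 1765 FPKM in liver. Ces2 summed to 64.8 and 155 FPKM in Hep-Org, against 73.0 to 278 FPKM in liver, and kept 66.1% of the liver mean.

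Sequencing depth recovered from the values was 13.7 to 41.4 M reads per library, and 22.9 to 24.3 M in Hep-Org. The 6 hepatocyte markers summed to 4942 and 1128 FPKM in Hep-Org, against 23010 to 76162 FPKM in liver, with none under 1 FPKM in both Hep-Org libraries. Of 5 biliary markers none was under 1 FPKM in both Hep-Org libraries, and their sum was 4444 and 2729 FPKM in Hep-Org, mostly Spp1, against 5.39 to 335 FPKM in liver. Kupffer cell markers summed to 4.28 and 0.889 FPKM in Hep-Org, against 16.8 to 421 FPKM in liver, and all 5 sinusoidal endothelial markers were under 1 FPKM in both Hep-Org libraries. Undamaged replicates 1 and 2 differed from each other, with Kupffer cell sums of 16.8 and 354 FPKM and biliary sums of 8.06 and 335 FPKM. All genes in them summed to 469342 and 988797 FPKM. The part of these markers in the results was not tested. In bulk libraries fewer cells of a type and less RNA per cell cannot be told apart. Hep-Org replicate 1 had 9.90 FPKM of Ddx3y and 0.00128 FPKM of Xist, and replicate 2 had 0.00756 FPKM of Ddx3y and 25.3 FPKM of Xist. All 6 libraries of 48 h, 72 h and 7 d held Xist (13.6 to 23.7 FPKM) and no Ddx3y, and the other 10 PHx libraries held Ddx3y and at most 0.137 FPKM of Xist, so at those times sex-linked expression and time cannot be told apart.

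Organoids were first compared with undamaged liver. Tests used log2(FPKM + 1) in limma, over the 13162 genes with at least 1 FPKM in at least 2 libraries, and 48 of the 62 genes passed that filter. A call needed a log2 difference of at least 1 in size together with a Benjamini-Hochberg adjusted p under 0.05. In Hep-Org 30 of the 48 fell and 2 rose relative to undamaged liver, where 13.2% of all genes tested were called lower and 10.3% higher. Their median log2 difference was -2.76, and that of all genes -0.03. The median was also -2.76 without Ces1b and Ces4a, which are listed at 0 in both Hep-Org libraries. Against PHx liver at 7 to 21 d, 31 fell and 2 rose in Hep-Org (13.6% and 11.2% of all genes), with a median of -2.83 beside -0.01 for all genes. Both comparisons use the same Hep-Org libraries. Every library was also scaled to the same FPKM sum. The median of all genes then shifted to 1.29 against undamaged liver and 0.95 against 7 to 21 d. The calls became 10 higher and 23 lower against undamaged liver, where 62.7% of all genes were called in either direction. Against 7 to 21 d they became 5 higher and 28 lower, where 54.1% of all genes were called. Some genes not called changed sign under that scaling in at least 1 of these comparisons. They were Gsta2, Gstm1, Gstm2, Gstm6, Gstp1, Gstp3, Gstt1, Gstt2, Gstt3, Gsto1, Ces2c, Ces2e and Ces2g.

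To describe what organoids keep, the 47 genes with a liver mean of at least 1 FPKM were sorted by level, with no test. In 18 both Hep-Org libraries were under 1 FPKM, and these are called lost. A further 18 were reduced, with a Hep-Org mean under 0.5 times the liver mean. In 8 the mean lay between 0.5 and 2 times the liver mean, and these are called kept. The remaining 3 were raised above 2 times. Both Hep-Org libraries lay below all 18 liver libraries for 22 of the 47 genes and above all of them for 1, Gstm5. The shares of all genes with these patterns were not counted, so these counts have no background beside them. Every lost gene was a UGT or a carboxylesterase, and every raised gene was a GST. Scaled to the same sum, 14 were lost, 13 reduced, 12 kept and 8 raised. The carboxylesterases Ces2e and Ces2g were then among the raised. Ces2e was also raised when Hep-Org replicate 1 was left out.

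**Figure D1:**
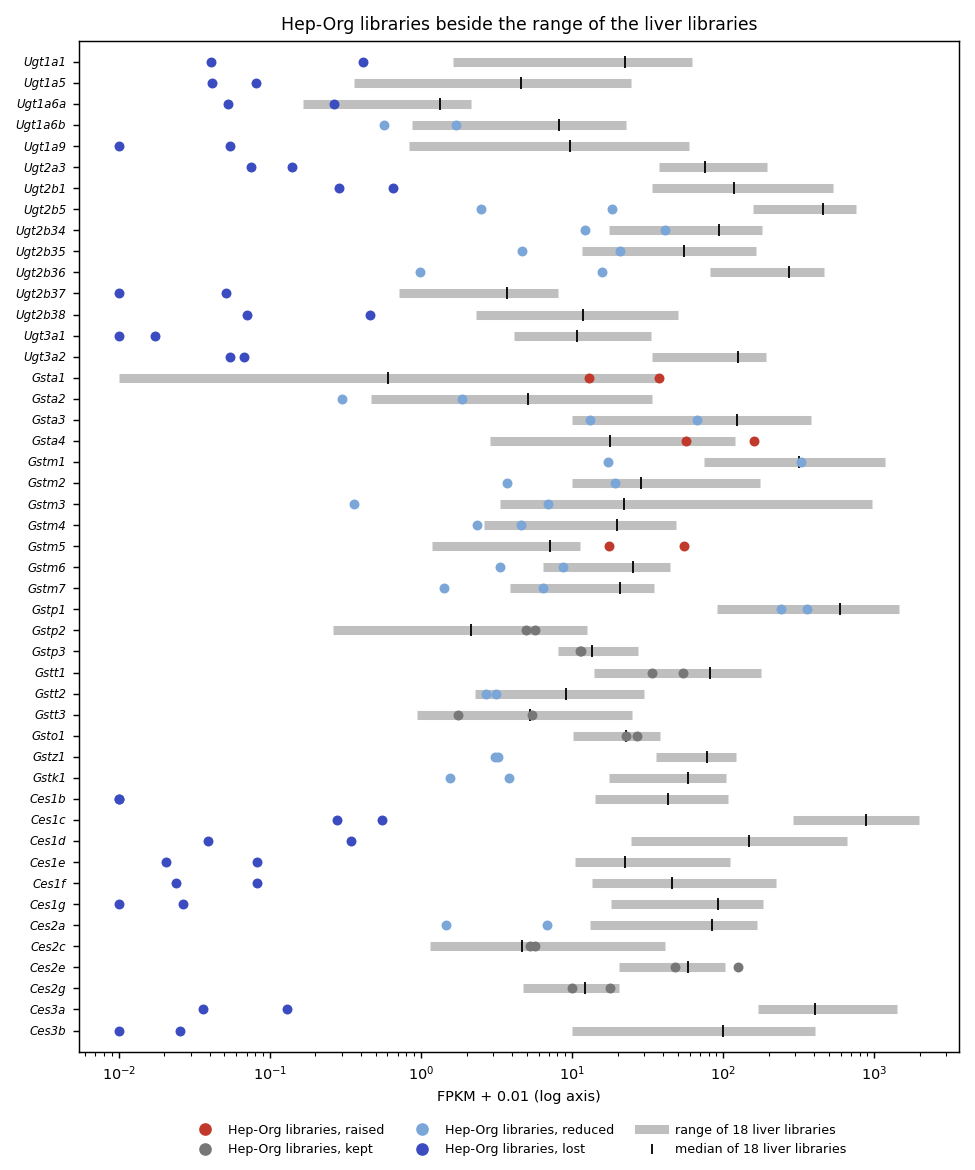
FPKM + 0.01 (log axis) of the 47 genes with a liver mean of at least 1 FPKM. Points are the 2 Hep-Org libraries, coloured by the 4 classes, grey bars the range of the 18 liver libraries and ticks their median. The 18 lost genes lie left of their grey bars except for 1 Ugt1a6a point, and Gstm5 lies right of its bar in both libraries.

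Among the UGTs, none of the 15 with a liver mean of at least 1 FPKM was kept or raised in Hep-Org. All 5 tested Ugt1a genes, all 8 tested Ugt2 genes and both Ugt3 genes fell relative to undamaged liver. Ugt1a1, the enzyme that conjugates bilirubin, had 0.0309 and 0.406 FPKM in Hep-Org, against 46.7 and 22.1 FPKM in undamaged liver. The groups did not overlap, and the log2 difference was -4.79 (SE 0.77, limma adjusted p = 0.000614). Ugt1a9, an enzyme for phenols, was listed at 0 and 0.0448 FPKM in Hep-Org, against 26.4 and 14.9 FPKM in undamaged liver (log2 -4.35, SE 0.63, adjusted p = 0.00029). Ugt1a6b, of the type that conjugates small phenols, held 0.557 and 1.68 FPKM in Hep-Org, against 19.2 and 10.4 FPKM in undamaged liver. It was the leading Ugt1a gene of Hep-Org, with 52.9% of the family's mean FPKM, whereas Ugt1a1 led in liver with 45.1%. Ugt1a5 fell by 2.83 on the log2 scale and Ugt1a6a by 1.10. The Ugt1a6a call is weak, since its adjusted p was 0.045 and leaving out any 1 of the 4 libraries ended it (adjusted p 0.017 to 0.235 over all alternatives). The calls of Ugt1a6a and Ugt1a6b ended under scaling to the same sum, and that of Ugt1a6a with no filter on low values. Ugt1a2, Ugt1a7c, Ugt1a8 and Ugt1a10 averaged under 1 FPKM in liver, and Ugt1a7c had 0.369 and 0.740 FPKM in Hep-Org, against 0.0349 to 1.05 FPKM in liver.

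The Ugt2 family, whose members conjugate steroids, bile acids and drugs, held most of the UGT transcript. Ugt2b1 had 0.276 and 0.641 FPKM in Hep-Org, against 523 and 529 FPKM in undamaged liver (log2 -8.51, SE 0.50, adjusted p = 3.58e-07). Ugt2a3 had 0.0649 and 0.13 FPKM in Hep-Org, against 186 and 155 FPKM in undamaged liver (log2 -7.28, SE 0.51). Both were lost, and neither Hep-Org library came near the lowest liver library, at 33.8 FPKM for Ugt2b1 and 37.3 FPKM for Ugt2a3. Ugt2b5, the leading member in liver, kept a measurable level of 2.49 and 18.4 FPKM in Hep-Org, against 572 and 756 FPKM in undamaged liver (log2 -6.32, SE 0.68). Ugt2b36 was at 0.978 and 15.8 FPKM in Hep-Org, against 325 and 355 FPKM in undamaged liver (log2 -5.89, SE 0.77). Replicate 2 held more than replicate 1 for both. Ugt2b34 had the highest ratio of Hep-Org mean to liver mean FPKM in the Ugt2 family, with 12.1 and 41.2 FPKM in Hep-Org and 179 and 150 FPKM in undamaged liver (log2 -2.81, SE 0.61). It led the family in Hep-Org with 45.2% of the mean FPKM, while Ugt2b5 led in liver with 36.1%. Ugt2b35 was next, at 4.63 and 20.6 FPKM in Hep-Org and 104 and 105 FPKM in undamaged liver (log2 -3.26, SE 0.63). The calls of Ugt2b34 and Ugt2b35 ended under scaling to the same sum, and that of Ugt2b34 without Hep-Org replicate 1 (adjusted p up to 0.163). Ugt2b37 and Ugt2b38 fell by 2.72 and 5.29 on the log2 scale. Ugt2a1 and Ugt2a2, which share 97.0% and 93.6% of their words with other genes, were at 0 or up to 0.0202 FPKM in liver.

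Ugt3 enzymes use sugar donors other than UDP-glucuronic acid, as known from the human genes. Ugt3a2 had 0.0443 and 0.057 FPKM in Hep-Org, against 178 and 191 FPKM in undamaged liver (log2 -7.46, SE 0.39, adjusted p = 1.66e-07). Ugt3a1 was listed at 0 and 0.00736 FPKM in Hep-Org, against 33.1 and 22.9 FPKM in undamaged liver (log2 -4.83, SE 0.46). Neither gene came within the liver range, which began at 33.8 FPKM for Ugt3a2 and 4.10 FPKM for Ugt3a1.

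The GSTs were mixed. Of the 20 with a liver mean of at least 1 FPKM, none was lost, 12 were reduced, 5 kept and 3 raised in Hep-Org. Against undamaged liver 2 rose (Gsta1 and Gstm5), 5 fell (Gsta3, Gstm4, Gstm7, Gstz1 and Gstk1) and 13 did not pass the test. Gstm5, a mu-class gene best known from brain and testis, had 17.6 and 54.8 FPKM in Hep-Org, against 5.19 and 5.97 FPKM in undamaged liver. Both Hep-Org libraries lay above all 18 liver libraries, whose highest was 11.2 FPKM. The log2 difference was 2.29 (SE 0.47, adjusted p = 0.00321), and the call held under every alternative tried in this comparison. Against 7 to 21 d it was 1.87 (SE 0.41, adjusted p = 0.00336), and that call ended without Hep-Org replicate 2 (adjusted p up to 0.0804 over the alternatives).

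Gsta1, an alpha-class gene known for induction by antioxidants, had 13.0 and 37.3 FPKM in Hep-Org, against 0.102 and 0.961 FPKM in undamaged liver (log2 3.98, SE 1.16, adjusted p = 0.0211). Liver ran from 0 through a median of 0.593 to 37.5 FPKM, and the highest value, from PHx 24 h replicate 1, overlapped the Hep-Org range. The Gsta1 call ended without Hep-Org replicate 2, without either undamaged library, with no filter on low values and with a pseudocount of 0.1 (adjusted p up to 0.142). Against 7 to 21 d Gsta1 was higher by 3.31 (SE 0.99, adjusted p = 0.0197), and that call ended with no filter, with a pseudocount of 0.1 and without Hep-Org replicate 2, PHx 7 d replicate 1 or PHx 14 d replicate 1 (adjusted p up to 0.181). Most of its words are shared, 75.7% of them with the predicted gene Gm3776, which had 4.66 and 14.2 FPKM in Hep-Org and at most 1.39 FPKM in liver outside PHx 24 h replicate 1. Gsta4, which conjugates the lipid peroxidation product hydroxynonenal, had 56.5 and 161 FPKM in Hep-Org, against 20.1 and 4.65 FPKM in undamaged liver. Its groups did not overlap, but the log2 difference of 3.14 had an SE of 1.19 and did not pass the test (adjusted p = 0.0646). Gsta4 made up 62.1% of the alpha-class mean FPKM in Hep-Org, and Gsta3 82.7% in liver. Gsta3 had 13.2 and 66.9 FPKM in Hep-Org, against 266 and 88.8 FPKM in undamaged liver (log2 -2.32, SE 0.81, adjusted p = 0.0462). That call ended without Hep-Org replicate 1, without undamaged replicate 1, with no filter, with voom and under scaling to the same sum (adjusted p 0.0163 to 0.674). Gsta2 was at 0.292 and 1.85 FPKM in Hep-Org and 5.39 and 1.01 FPKM in undamaged liver, with overlapping groups (log2 -0.90, SE 1.07).

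In the mu class Gstm1, the most abundant member, had 17.4 and 329 FPKM in Hep-Org, against 300 and 97.9 FPKM in undamaged liver. The spread between the Hep-Org libraries exceeded the difference between groups (log2 -1.15, SE 1.34, adjusted p = 0.548), so a change could not be shown. Gstm2 (3.72 and 19.1 FPKM in Hep-Org, 10.9 and 9.96 FPKM in undamaged liver) and Gstm3 (0.349 and 6.97 FPKM in Hep-Org, 10.8 and 4.84 FPKM in undamaged liver) did not pass either. Gstm4 fell by 1.94 (SE 0.50) and Gstm7 by 2.61 (SE 0.57) on the log2 scale, and both calls ended without Hep-Org replicate 1 and under scaling to the same sum, and that of Gstm4 also without undamaged replicate 1. Gstm6 was at 3.34 and 8.63 FPKM in Hep-Org and 31.9 and 12.1 FPKM in undamaged liver (log2 -1.68, SE 0.77, adjusted p = 0.116). Against 7 to 21 d Gstm3, Gstm4, Gstm6 and Gstm7 fell. The call of Gstm6 ended without Hep-Org replicate 1 and under scaling to the same sum (adjusted p up to 0.154), and that of Gstm3 under scaling, with no filter on low values and without either Hep-Org library, PHx 7 d replicate 2, PHx 14 d replicate 1 or either 21 d library (adjusted p up to 0.336).

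The pi, theta and omega classes held most of the genes organoids kept (Gstp2, Gstp3, Gstt1, Gstt3 and Gsto1), while Gstp1 and Gstt2 were reduced. Gstp1, the GST with the highest median in liver (597 FPKM), had 240.0 and 358 FPKM in Hep-Org, against 1003 and 636 FPKM in undamaged liver (log2 -1.44, SE 0.70, adjusted p = 0.137). Gstp3 had 11.5 and 11.3 FPKM in Hep-Org and 11.4 and 13.6 FPKM in undamaged liver (log2 -0.11, SE 0.36). Gstp2 was at 5.65 and 4.92 FPKM in Hep-Org and 2.09 and 9.19 FPKM in undamaged liver (log2 0.16, SE 0.69). Gsto1, which reduces dehydroascorbate and mixed disulfides, had 22.8 and 26.9 FPKM in Hep-Org and 25.2 and 13.8 FPKM in undamaged liver (log2 0.39, SE 0.44). Gstt1, a theta-class enzyme for small halogenated compounds, had 33.5 and 54.5 FPKM in Hep-Org and 104 and 59.4 FPKM in undamaged liver (log2 -0.86, SE 0.90). Gstt3 was at 1.75 and 5.43 FPKM in Hep-Org, against 2.81 and 0.933 FPKM in undamaged liver (log2 0.63, SE 0.69), and Gstt2 at 3.11 and 2.67 FPKM in Hep-Org, against 3.76 and 2.26 FPKM in undamaged liver (log2 -0.02, SE 0.42). None of these 7 passed the test, and standard errors of 0.36 to 0.90 mean that equal levels were not shown. Scaled to the same sum, Gstp2, Gstp3, Gstt2, Gstt3 and Gsto1 were called higher in Hep-Org. Against 7 to 21 d Gstt2 fell by 1.22 (SE 0.36, adjusted p = 0.0178). That call ended under scaling to the same sum and without either Hep-Org library, PHx 7 d replicate 1 or PHx 21 d replicate 1.

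By contrast Gstz1 and Gstk1, whose enzymes act in tyrosine breakdown and in mitochondria and peroxisomes, fell with little spread. Gstz1 had 3.07 and 3.21 FPKM in Hep-Org, against 98.6 and 56.6 FPKM in undamaged liver (log2 -4.19, SE 0.36, adjusted p = 4.82e-06). Gstk1 had 1.54 and 3.78 FPKM in Hep-Org, against 61.0 and 64.0 FPKM in undamaged liver (log2 -4.19, SE 0.52, adjusted p = 8.03e-05). Both lay below all 18 liver libraries in both Hep-Org libraries, and both calls held under every alternative. Gstt4 and Gsto2 averaged under 1 FPKM in liver and reached at most 0.0993 and 0.165 FPKM in Hep-Org.

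Carboxylesterases divided by family. All 6 Ces1 genes and both Ces3 genes with a liver mean of at least 1 FPKM were lost in Hep-Org, and of the 4 such Ces2 genes 3 were kept. Ces3a, an esterase linked to hepatic lipid handling, showed the lowest log2 difference of all 48 genes. It had 0.0261 and 0.120 FPKM in Hep-Org, against 1210 and 1405 FPKM in undamaged liver (log2 -10.25, SE 0.50, adjusted p = 1.19e-07). Ces1c, the esterase that mice secrete into plasma, had 0.266 and 0.541 FPKM in Hep-Org, against 1443 and 1555 FPKM in undamaged liver (log2 -10.07, SE 0.52, adjusted p = 1.52e-07). Ces1d, known as triacylglycerol hydrolase, had 0.0290 and 0.332 FPKM in Hep-Org, against 663 and 254 FPKM in undamaged liver (log2 -8.46, SE 0.79). Ces3b and Ces1g were each listed at 0 in 1 Hep-Org library, with 0.0153 FPKM of Ces3b and 0.0164 FPKM of Ces1g in the other, against at least 360 FPKM of Ces3b and 128 FPKM of Ces1g in undamaged liver. Ces1b was listed at 0 in both Hep-Org libraries, against 63.7 and 87.2 FPKM in undamaged liver. Ces1e and Ces1f fell by 6.25 and 7.34 on the log2 scale. In these 8 genes no Hep-Org library reached 1 FPKM and every liver library lay above both Hep-Org libraries, and their calls held under every alternative in both comparisons.

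Ces2 enzymes prefer esters with small acyl groups and are also abundant in the intestine. Ces2e had 47.7 and 125 FPKM in Hep-Org, against 75.3 and 99.6 FPKM in undamaged liver (log2 -0.16, SE 0.52, adjusted p = 0.847). It made up 78.5% of the Ces2 mean FPKM in Hep-Org, where Ces2a made up 50.3% in liver. Ces2g had 9.92 and 17.9 FPKM in Hep-Org and 18.5 and 20.5 FPKM in undamaged liver (log2 -0.51, SE 0.38). Ces2c had 5.70 and 5.22 FPKM in Hep-Org and 12.3 and 10.6 FPKM in undamaged liver (log2 -0.94, SE 0.63). Hep-Org overlapped undamaged liver for Ces2e and lay below it for Ces2c and Ces2g, and all 3 stayed within the range of the 18 liver libraries except Ces2e in Hep-Org replicate 2. Ces2a alone fell, with 1.46 and 6.86 FPKM in Hep-Org and 168 and 147 FPKM in undamaged liver (log2 -5.17, SE 0.72, adjusted p = 0.000215). Scaled to the same sum, Ces2e and Ces2g were called higher in Hep-Org. Ces4a was listed at 0 in both Hep-Org libraries and had 1.64 and 2.61 FPKM in undamaged liver. Ces1a, Ces1h, Ces2b, Ces2f and Ces2h averaged under 1 FPKM in liver, and Ces5a was listed at 0 in all 20 libraries.

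The 2 Hep-Org libraries differed more than the class names show. They also held opposite sex-linked transcripts, Ddx3y in replicate 1 and Xist in replicate 2, and the part of this in the differences was not tested. Of the 29 genes that were not lost, 25 were higher in replicate 2 than in replicate 1, with the largest gaps at Gstm1, Gstm3 and Ugt2b36. Alb, which encodes albumin, went the other way, with 3132 FPKM in replicate 1 and 86.4 FPKM in replicate 2. Counted from replicate 1 alone, 22 genes were lost, 16 reduced, 6 kept and 3 raised, and from replicate 2 alone 18, 15, 10 and 4.

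Genes of the same pathways were taken from fixed lists, and their counts stand beside the 13.2% of all genes called lower and 10.3% called higher in this comparison. Of 10 cofactor genes 3 fell in Hep-Org relative to undamaged liver, with the largest difference at Mat1a, which makes S-adenosylmethionine (1.12 and 2.73 FPKM in Hep-Org, 501 and 263 FPKM in undamaged liver, log2 -7.02), followed by the sugar nucleotide transporter Slc35d1 (-2.47) and the glutathione synthesis subunit Gclm (-1.61). Of 12 tested sulfotransferases 5 fell, led by Sult2a8 (-6.94), Sult1a1 (-5.42) and Sult1d1 (-3.41). Of 10 methyl, acyl and glycine transferases 9 fell, led by Inmt, Nnmt (-5.47) and the bile acid conjugating enzyme Baat (-4.67). Inmt was listed at 0 in both Hep-Org libraries, against 238 and 30.8 FPKM in undamaged liver. Of 7 other hydrolases 5 fell, led by Pon1 (-8.50), Aadac (-6.72) and Ephx2 (-4.20). Mgst1, the main microsomal GST, fell by 4.55 and the other tested member of its list, Mgst3, did not pass (0.04). Among 4 conjugate exporters Abcc4 rose, with 11.8 and 24.5 FPKM in Hep-Org and 0.0763 and 0.518 FPKM in undamaged liver (log2 3.82, SE 0.31, adjusted p = 3.46e-06), Abcg2 fell by 1.68 and Abcc3 was at -0.98 (adjusted p = 0.157).

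Of the 9 regulators known to act on these genes, 1 rose and 5 fell in Hep-Org relative to undamaged liver, where 10.3% of all genes were called higher and 13.2% lower. Nfe2l2, which encodes NRF2, the activator at antioxidant response elements, had 41.7 and 51.7 FPKM in Hep-Org, against 11.6 and 12.0 FPKM in undamaged liver (log2 1.89, SE 0.36, adjusted p = 0.00185). Ppara, Nr1i2 and Nr1i3, which encode the lipid and drug receptors PPARalpha, PXR and CAR, fell by 2.97, 2.89 and 2.37 on the log2 scale.

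After partial hepatectomy the same enzymes were followed over time. Relative to undamaged liver, 18 of the 48 genes fell and 1 rose at 6 h, where 6.29% of all genes were called lower and 4.62% higher. At 12 h 8 fell and 1 rose, where 2.15% of all genes were called lower, 0.935% higher and 3.08% either way. At 48 h 2 fell, Ugt2b1 and Ces3b, where 0.266% of all genes were lower and 0.144% higher. The genes that fell at 6 h were 10 UGTs and 8 carboxylesterases, and no GST was called lower than in undamaged liver at any time. Among the UGTs these were Ugt1a1, Ugt1a5, Ugt1a6b, Ugt1a9, Ugt2a3, Ugt2b1, Ugt2b34, Ugt2b35, Ugt3a1 and Ugt3a2, and among the carboxylesterases Ces1c, Ces1e, Ces1f, Ces1g, Ces2e, Ces2g, Ces3a and Ces4a. Ces1g had the smallest adjusted p, with 20.5 and 28.1 FPKM at 6 h, against 182 and 128 FPKM in undamaged liver (log2 -2.61, SE 0.44, adjusted p = 0.00445). Ugt3a2 had 33.8 and 34.9 FPKM at 6 h, against 178 and 191 FPKM in undamaged liver (log2 -2.38, SE 0.40, adjusted p = 0.00451). Neither gene's groups overlapped.

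These counts depended on single libraries, and the shares of all genes called with a library left out are not given here. At 6 h, 4 genes were called without PHx 6 h replicate 1 (Ugt1a6b, Ugt3a2, Gstt2 and Ces1g), 4 without undamaged replicate 1 (Ugt3a1, Ugt3a2, Gstt2 and Ces1g) and 12 without undamaged replicate 2, and of the 19 calls those of Ces1g and Gstt2 held under every alternative. At 12 h the count was 2 without PHx 12 h replicate 1 or undamaged replicate 1, and 4 without PHx 12 h replicate 2 or undamaged replicate 2. At 48 h Ugt2b1 (log2 -3.52, adjusted p = 0.0139) and Ces3b (log2 -4.16, adjusted p = 0.0289) were both lost as calls without PHx 48 h replicate 2 or undamaged replicate 1, and Ces3b without undamaged replicate 2. PHx 6 h replicate 1 and PHx 12 h replicate 1 also held the highest erythroid marker sums, at 6755 and 6155 FPKM, against at most 542 FPKM in any other library, and 3 of those markers are haemoglobin chains. Hepatocyte markers summed to 23010 and 34543 FPKM at 6 h and 63856 and 76162 FPKM in undamaged liver. Their part in the falls was not tested. With PHx 21 d in place of undamaged liver, 20 genes fell at 6 h and 12 at 12 h. In either direction 14.3% and 5.83% of all genes were called, and the share called lower alone is not given here. GSTs were among the genes that fell: Gsta3 (log2 -3.36, adjusted p = 0.0148), Gstm4, Gstm7 and Gstz1 at 6 h, and Gsta3 at 12 h.

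Gstt2, a theta-class GST, was the gene that rose. It was at 3.76 and 2.26 FPKM in undamaged liver, 9.51 and 26.1 at 6 h, 21.5 and 21.2 at 12 h, 29.7 and 18.5 at 24 h and 4.56 to 10.7 FPKM from 48 h to 21 d. All 16 PHx libraries lay above both undamaged libraries. The log2 difference was 2.10 at 6 h (SE 0.43, adjusted p = 0.0108) and 2.51 at 12 h (SE 0.43, adjusted p = 0.0112), and at 24 h the smallest adjusted p of the 48 genes was that of Gstt2, 0.0759. The 12 h call ended without PHx 12 h replicate 1 (adjusted p up to 0.0701). With PHx 21 d in place of undamaged liver, Gstt2 was not called at 6 or 12 h.

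No gene was called in limma at 24 h, 72 h, 7 d, 14 d or 21 d against undamaged liver, where 0%, 0.889%, 0.425%, 0% and 0% of all genes were called. Of all genes, 0.365% were higher and 0.524% lower at 72 h, and 0.236% higher and 0.19% lower at 7 d. At an unadjusted p under 0.05 there were 20, 15, 8, 4 and 1 of the 48 at these times, and voom on recovered reads also called none. Between neighbouring times, no gene was called at 48 h against 24 h (0.137% of all genes, 0.0836% higher and 0.0532% lower) or at 14 d against 7 d (0.251%, 0.0836% higher and 0.167% lower). There 9 and 4 of the 48 had an unadjusted p under 0.05, beside 4.32% and 3.08% of all genes, and voom called none.

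Over the 8 times, tested together by limma's moderated F test, 12 of the 48 genes differed, where 9.51% of all genes did. They were Ugt1a1, Ugt1a5, Ugt1a6b, Ugt1a9, Ugt2b1, Ugt3a1, Ugt3a2, Gsta3, Gstm4, Gstp1, Ces1g and Ces2c. All but Ugt1a5 and Gstm4 had their highest fitted mean at 14 or 21 d, and all but Ugt2b1, Gstp1 and Ces2c their lowest at 6 or 12 h. Ces1g was at 20.5 and 28.1 FPKM at 6 h, 18.1 and 31.0 at 12 h, 79.1 and 41.7 at 24 h, 66.3 and 32.2 at 48 h, 82.3 and 117 at 72 h, 136 and 130 at 7 d, 102 and 108 at 14 d and 134 and 144 FPKM at 21 d (F = 11.5, adjusted p = 0.00741). The libraries of 6 and 12 h lay below all others. Ugt1a9 was at 3.47 and 2.61 FPKM at 6 h, 3.61 and 0.818 at 12 h, 7.18 and 4.70 at 24 h, 3.07 and 8.13 at 48 h, 6.75 and 19.6 at 72 h, 11.1 and 11.8 at 7 d, 59.4 and 21.1 at 14 d and 17.0 and 34.0 FPKM at 21 d (F = 8.01, adjusted p = 0.0196). Of the libraries up to 7 d, PHx 72 h replicate 2 alone exceeded the lowest library of 14 and 21 d. Ugt3a2 was at 33.8 and 34.9 FPKM at 6 h, 64.1 and 37.1 at 12 h, 110 and 125 at 48 h and 169 and 171 FPKM at 21 d (F = 9.31, adjusted p = 0.0129). Ugt1a1 had 5.26 and 1.63 FPKM at 6 h, 6.49 and 20.9 at 24 h, 42.8 and 28.6 at 14 d and 62.4 and 47.8 FPKM at 21 d, and its adjusted p of 0.0497 lay at the threshold. For both UGTs the libraries of 6 h lay below those of 14 and 21 d without overlap. Ugt2b1 reached its lowest level later, with 103 and 122 FPKM at 6 h, 59.0 and 33.8 FPKM at 48 h and 467 and 462 FPKM at 21 d (F = 8.75, adjusted p = 0.0152). Ces2c had 1.66 and 1.13 FPKM at 48 h, 1.22 and 4.38 at 72 h and 41.4 and 18.8 FPKM at 21 d (adjusted p = 0.0339). Gsta3 had 9.90 and 52.2 FPKM at 12 h and 382 and 289 FPKM at 21 d (adjusted p = 0.0417). Gstm4 peaked at 24 h, with 48.8 and 26.6 FPKM, and had 2.62 and 9.91 FPKM at 6 h (adjusted p = 0.0328). Of the 12 calls, those of Ces1g and Ugt3a2 held under every alternative. Without PHx 21 d replicate 1 or replicate 2, 4 genes were called (Ugt1a5, Ugt1a9, Ugt3a2 and Ces1g), without PHx 12 h replicate 2 or PHx 14 d replicate 1, 6, and without PHx 14 d replicate 2, 7.

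The other pathway genes were followed in the same way. Over the times, where 9.51% of all genes differed, 6 of the 12 tested sulfotransferases did (Sult1b1, Sult2a1, Sult2a2, Sult2a7, Sult3a1 and Sult3a2), as did the methyltransferases Inmt and Hnmt, the paraoxonases Pon2 and Pon3 and the exporter Abcg2. The genes that fell at 6 h relative to undamaged liver (6.29% of all genes) included Hnmt, Pon1, Pon2, Pon3, Abcc3 and Abcg2, and the estrogen sulfotransferase Sult1e1, listed at 0 in both undamaged libraries, rose.

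**Figure D2:**
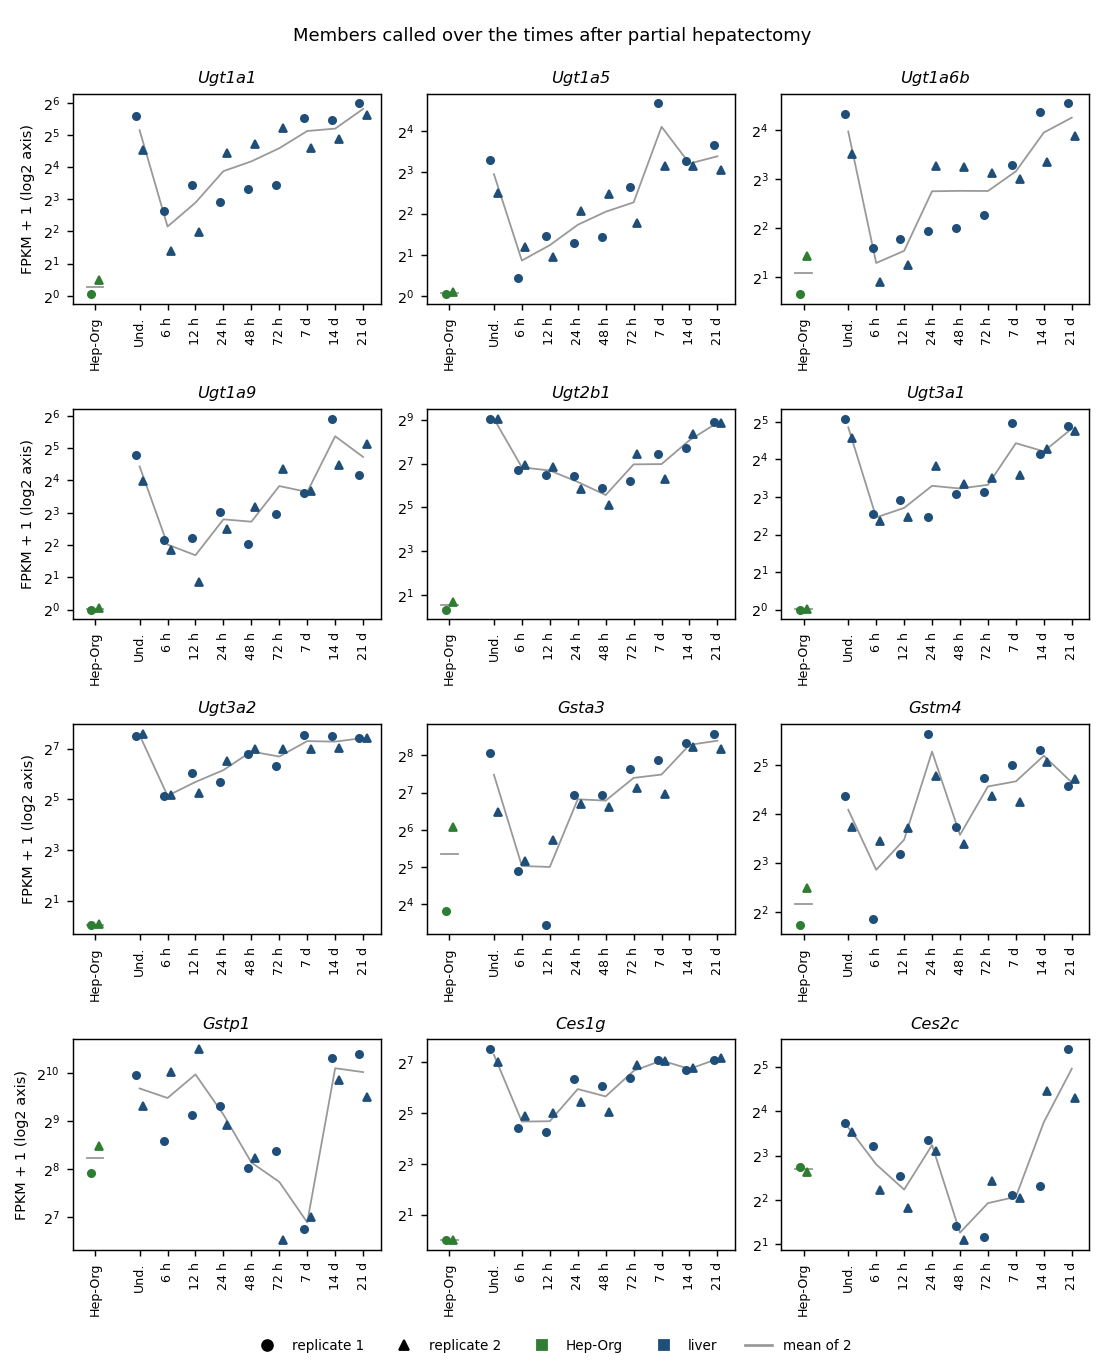
FPKM + 1 (log2 axis) of the 12 genes called over the times after partial hepatectomy, with Hep-Org left, undamaged liver (Und.) and then the 8 times. Circles and triangles are replicates 1 and 2 and grey lines the means of 2. Ces1g and Ugt3a2 are lowest at 6 and 12 h and near their undamaged level at 21 d, while both Hep-Org points lie far below.

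When the 48 h, 72 h and 7 d libraries, which hold Xist, were left out, 11 genes differed over the other 5 times, where 7.43% of all genes did. Ugt2a3 and Ces1f entered and Gstp1, Gsta3 and Ces2c left. Gstp1, a gene known to be expressed more in male than in female mouse liver, ran from 90.4 through a median of 194 to 332 FPKM in these 6 libraries, from 384 through 828 to 1452 FPKM in the other 10 PHx libraries, and was at 1003 and 636 FPKM in undamaged liver. The 6 libraries lay below all the others, and Gstp1 was the single member with that pattern in either direction. The share of all genes with that pattern was not counted. Hep-Org replicate 2, which also holds Xist, had 358 FPKM and replicate 1 had 240.0 FPKM. At 14 d against 7 d Gstp1 was at 1266 and 932 against 107 and 127 FPKM (adjusted p = 0.149). Gstp2 followed another course, with 12.5 and 6.21 FPKM at 6 h, 10.2 and 3.90 at 48 h, 0.250 and 0.745 at 72 h and 1.27 and 2.19 FPKM at 21 d, and did not pass the F test (adjusted p = 0.0579). In the sulfotransferase list Sult2a1, Sult2a2, Sult3a1 and Sult3a2 were higher in all 6 libraries than in the other 10 PHx libraries. Sult2a2, which sulfates steroids, had 33.5 to 741 FPKM in the 6 and at most 10.2 FPKM in the 10.

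**Figure D3:**
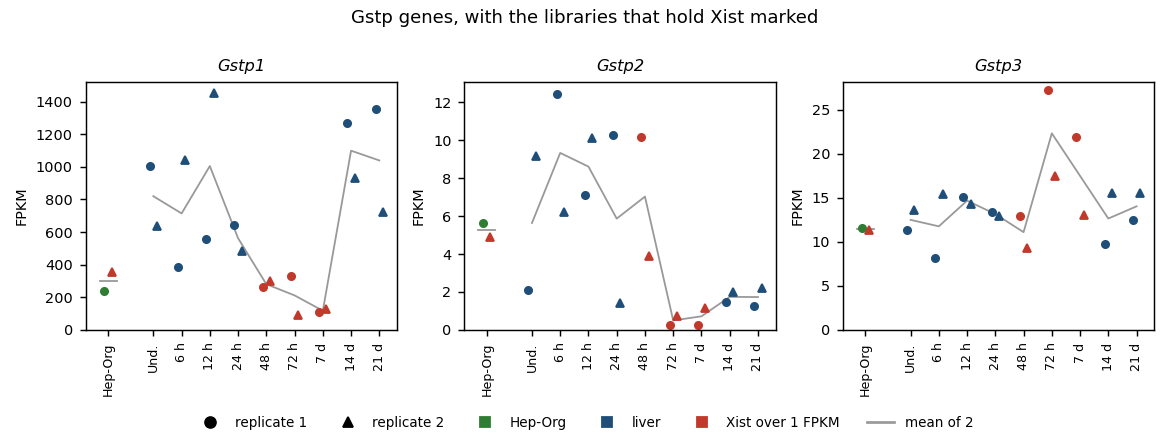
FPKM of Gstp1, Gstp2 and Gstp3 by group, with Hep-Org left, undamaged liver (Und.) and then the 8 times after partial hepatectomy. Circles and triangles are replicates 1 and 2, grey lines the means of 2, and red marks the libraries with Xist over 1 FPKM. The red Gstp1 points of 48 h, 72 h and 7 d lie at 90.4 to 332 FPKM, below all other liver points.

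One library stood apart for the alpha and mu classes, a pattern chosen after its values were seen. PHx 24 h replicate 1 was the highest of the 18 liver libraries for Gsta1, Gsta2, Gsta4, Gstm1, Gstm2, Gstm3, Gstm4, Gstt2 and Gstk1. These were 9 of the 47 genes, against 8 for undamaged replicate 1, the next library. The share of all genes highest in this library was not counted. All genes summed to 708167 FPKM in it and 429204 FPKM in PHx 24 h replicate 2, and the part of this was not tested. For Gstm1, Gstm4, Gstt2 and Gstk1 this library had 1.04, 1.27, 1.14 and 1.18 times the highest of the other 17 liver libraries. Gstm3 had 972 FPKM in it, against 14.2 FPKM in PHx 24 h replicate 2 and at most 98.0 FPKM in the other 17 liver libraries. Gsta1 had 37.5 FPKM in it, against 0.0645 FPKM in replicate 2 and at most 3.66 FPKM elsewhere in liver. Gsta4 had 120 FPKM in it, against 4.72 FPKM in replicate 2 and at most 47.9 FPKM elsewhere. Gsta2 had 33.6 FPKM in it, against 1.15 FPKM in replicate 2, and Gstm2 175 FPKM, against 31.7 FPKM in replicate 2. Outside these families the same library was the highest of liver for Ephx1 (271 FPKM, against 134 FPKM in replicate 2), Mgst3 (23.4 and 4.16 FPKM), Sult1a1 (591 and 151 FPKM) and Nfe2l2 (23.9 and 15.4 FPKM). Without PHx 24 h replicate 2, Gsta1 and Gstm3 were called higher at 24 h than in undamaged liver and lower at 48 h than at 24 h. With both libraries neither was called.

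**Figure D4:**
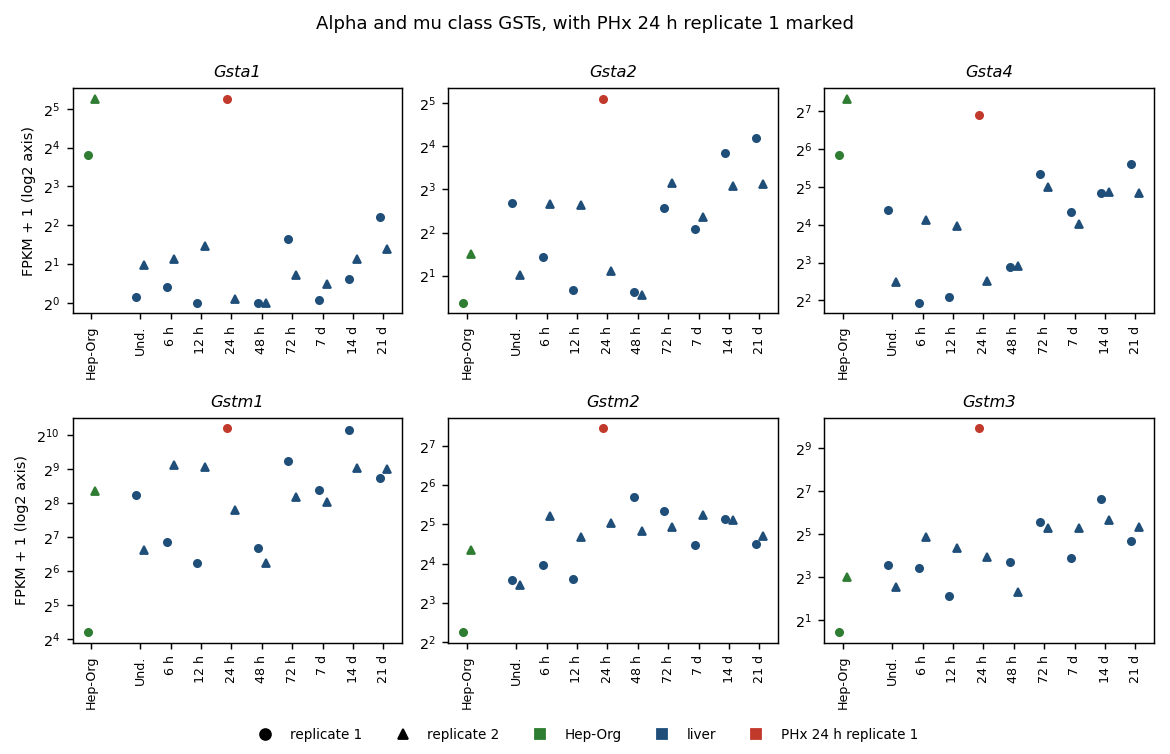
FPKM + 1 (log2 axis) of 6 alpha and mu class GSTs by group, with Hep-Org left, undamaged liver (Und.) and then the 8 times after partial hepatectomy. Circles and triangles are replicates 1 and 2, and red marks PHx 24 h replicate 1. For Gstm3 that library had 972 FPKM and the other 17 liver libraries at most 98.0 FPKM.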

How the data were processed

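The authors deposited FPKM in 1 table of 20 libraries, scaled between libraries by a method that is not given in the sources used here. Reads were aligned with HISAT2 2.0.5 to mm10, per the submitters' processing notes. How reads were counted, with which annotation and strand, was not stated in those notes. Symbols, exon lengths and positions came from GENCODE M21. Multiplied by exon length, 97.9% to 98.7% of the low values (20 reads or fewer) came out within 0.05 of a whole read. One column name did not equal its library name and was given to undamaged replicate 1 because no other sample was left.

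Genes with at least 1 FPKM in at least 2 libraries (13162) were tested on log2(FPKM + 1) with limma 3.58.1 (R 4.3.3, trend and robust options). They were tested in 1 fit of 20 libraries with group means and a submission term. Replicate 2 at all PHx times (8 libraries) was taken as the second submission, which the labels do not state. P-values were adjusted by Benjamini-Hochberg over all genes of a comparison, for 12 comparisons of 2 groups and the F test over 8 times, and calls also needed a size of at least 1 for the log2 difference or, over the times, for the range of fitted means. Fold changes on this scale understate changes of low genes.

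The families and the lists were chosen with earlier results of these data known. Named were the leading members of each family (up to 3), every gene called against Hep-Org or over the times, every gene kept or raised, and the 3 largest differences per list among genes with a mean of at least 1 FPKM. Nfe2l2 is named besides, for the motif. Some genes of the lists and the other promoter motifs searched are not reported here. The fit was tested on simulated data. Alternatives were no filter, a pseudocount of 0.1, no submission term, scaling to the same FPKM sum, each library left out (a lone library is then assumed to vary like the others) and, added after seeing the data, voom on recovered reads, 5 times, 14 and 21 d alone, and 21 d in place of undamaged liver. Shared sequence was counted over 50-base words. Python 3.11.15, numpy 2.4.6 and pandas 2.3.3 were used.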

Additional observations from a re-analysis of the deposited data

How the results depend on the processing

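Direction held for every gene called, under every alternative. The numbers of genes called in both Hep-Org comparisons stayed within 1.5 times, at 27 to 30 against undamaged liver and 28 to 34 against 7 to 21 d with 1 library left out. Of the 32 and 33 calls, 24 and 26 held under every alternative. Against undamaged liver at 6 h, 6 genes were called with no filter on low values and 4 after scaling to the same sum, against 19 in the fit as reported, and 4 to 19 with 1 library left out. At 12 h the numbers were 2 with no filter, 1 after scaling, 15 with no replicate block (no submission term) and 2 to 4 with 1 library left out, against 9. At 24 h 2 were called with no replicate block and 0 to 2 with 1 library left out, against 0. At 48 h 1 was called with no filter, 1 with voom, 5 with no replicate block and 0 to 2 with 1 library left out, against 2. At 72 h 4 were called with no replicate block, against 0, and between 48 and 24 h 0 to 2 with 1 library left out. Over the 8 times 2 genes were called with no filter and 4 to 12 with 1 library left out, against 12. The class raised in Hep-Org held 8 genes after scaling, against 3, and 3 to 4 with 1 Hep-Org library left out. The share of all genes called moved as well. At 6 h it was 2.48% with no filter and 2.45% after scaling, against 10.9%. At 12 h it was 0.418% with no filter, 0.514% after scaling and 5.56% with no replicate block, against 3.08%. With no replicate block it was 0.228% at 24 h, 0.691% at 48 h (0.41% as reported) and 3.23% at 72 h (0.889%). At 48 h it was 0.0569% with no filter and 0.0912% with voom. Over the 8 times it was 1.82% with no filter, against 9.51%. With no filter more genes are tested, and with a library left out fewer samples, and otherwise the cause was not tested. Single calls ended in 183 of 704 fits with 1 library left out, 37 of 107 after scaling, 36 of 107 with no filter, 10 with voom, 7 with a pseudocount of 0.1 and 0 with no replicate block. Scaling moved the median of all genes by 0.05 to 0.43 (log2) in the comparisons of PHx times with undamaged liver. Replicate numbers did not pair the libraries: over 28 pairs of times the correlation of replicate differences ran from -0.381 to 0.472, with 4 over 0.1. Low genes rest on few reads, and with 2 libraries a group a missed threshold does not show equal levels.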
